A study of Mus musculus with 12 samples.

Results

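The genes described here are 36 genes of the skeletal muscle sarcomere and fibre, among the 23163 genes counted by RNA sequencing in fat of mice. They were chosen by name: 13 genes typical of fast fibres, 8 of slow fibres or of the heart, 11 that both fibre types use, 3 tropomyosins, and Mstn, which encodes myostatin, a growth factor that muscle secretes. Brown fat (brown adipose tissue, BAT) and white fat from under the skin (subcutaneous white adipose tissue, sWAT) came from male C57Bl/6 wild-type mice aged 8 to 12 weeks. The groups were BAT after 72 hours at 4 °C, BAT after 72 hours at 30 °C, and sWAT after the same times at 4 °C and at 30 °C, with 3 libraries in each. The animals carried no genetic change and received no agent, and 30 °C is called thermoneutral because a mouse needs no extra heat there. The labels give 20 mice, 10 at each temperature, and do not say whether a library came from 1 animal or from a pool. The p-values below therefore measure the spread between these libraries, which may be technical.

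A muscle fibre shortens when thick filaments of myosin pull on thin filaments of actin, and calcium released inside the fibre starts this by binding troponin, which moves tropomyosin along the actin. Fast and slow fibres build the same machine from different gene copies, so that each myosin heavy chain, light chain and troponin has a fast form and a slow form, and many of the slow forms also serve the heart. Brown fat of the mouse back arises from precursors related to those of muscle. The libraries are of whole tissue, so a larger number of cells of a type and more RNA per cell cannot be told apart, and the counts do not say which cells the transcripts came from.

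All 36 genes had at least 1 count in every library, and the smallest value was 3 counts. Together they took between 0.0495% and 2.69% of a library's counts. Levels below are CPM (counts scaled to a common library size) with TMM factors for library composition. Summed over the 36 genes, BAT held 7733, 10345 and 6969 CPM at 4 °C (libraries 1, 2 and 3 in this order throughout) and 5663, 15587 and 21366 CPM at 30 °C. The sWAT sums were 10630, 27561 and 28339 CPM at 4 °C and 2606, 6167 and 274 CPM at 30 °C. The cold and thermoneutral sums overlapped in BAT, and all 3 cold sums lay above all 3 thermoneutral sums in sWAT. The lowest library of all, sWAT thermoneutral library 3, was the lowest for 34 of the 36 genes, and sWAT thermoneutral library 2 was the lowest for the other 2, Tpm3 and Actn2. Across the 12 libraries the highest level of a gene was between 4.42 times its lowest, for Tpm3, and 3151 times, for Tnnt1.

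**Figure D1:**
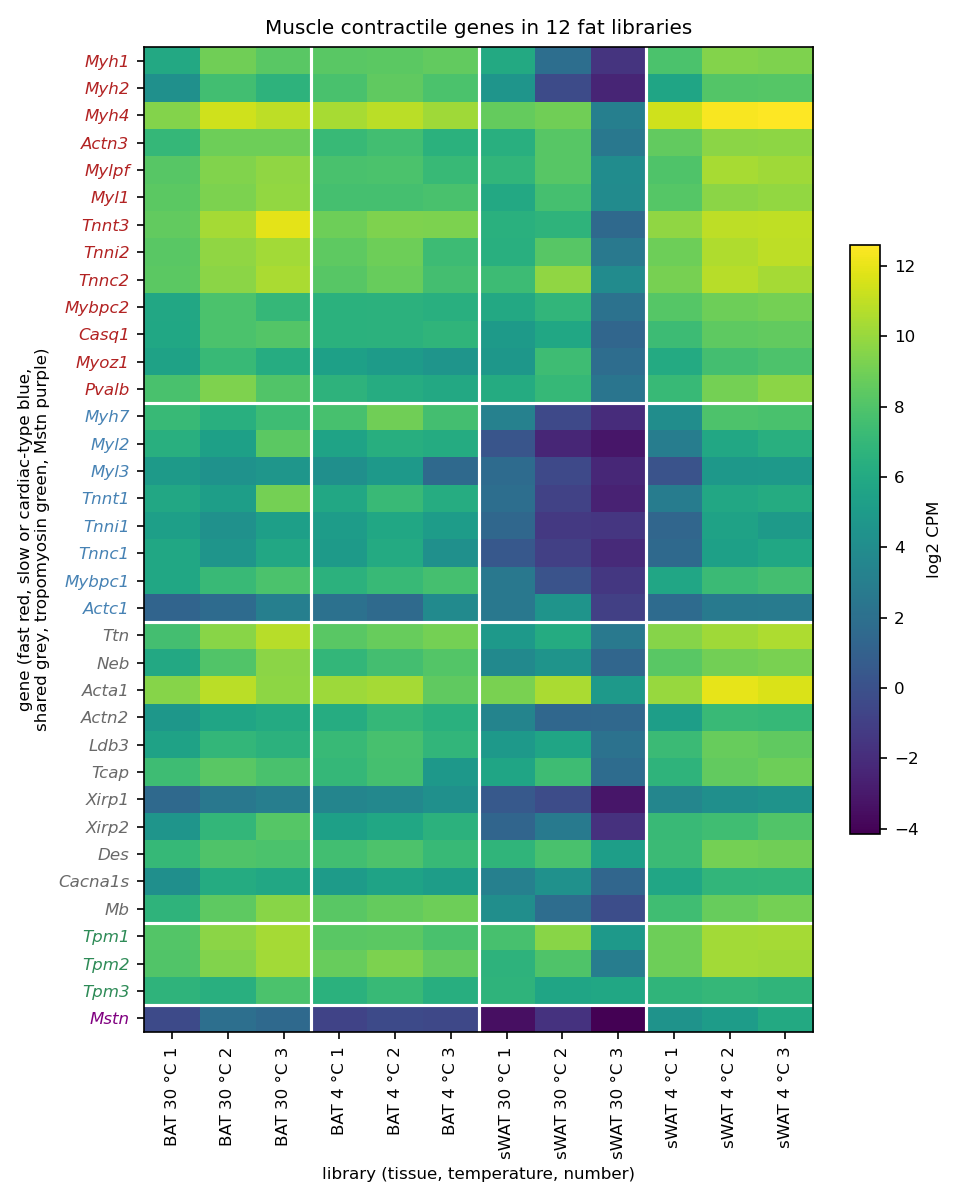
Level of each of the 36 genes (rows, grouped by class) in each of the 12 libraries (columns, grouped by tissue and temperature), as log2 of scaled CPM given by colour. The column of sWAT thermoneutral library 3 is the darkest for 34 of the 36 genes, and the row of Mstn is brightest in the 3 sWAT cold libraries.

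The libraries differed in ways that move with these groups. Genes encoded in mitochondrial DNA took 0.181% to 0.307% of the counts in sWAT at 30 °C and 17.6% to 53.8% in the other 9 libraries. Genes of ribosomal proteins took 7.16% to 8.12% there and 0.333% to 1.84% elsewhere. This difference in composition and the temperature cannot be told apart in sWAT, and it touches every value below that uses the sWAT thermoneutral libraries. Ucp1, the heat-producing protein of brown adipocytes, stood at 20075 to 23098 CPM in BAT and 3211 to 13211 CPM in sWAT at 4 °C. At 30 °C it stood at 1419 to 2553 CPM in BAT and 41.2 to 377 CPM in sWAT. At each temperature all BAT libraries were above all sWAT libraries. Cold sWAT was above thermoneutral BAT, so Ucp1 followed temperature as well as tissue and is by itself no check of the labels.

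The promoters of 4 genes are shown because their genes carry the contrasts described below: Mstn, the gene with the largest change in sWAT; Acta1, skeletal muscle actin; Myh4, which had the most counts of the 4 adult myosin heavy chains in every library; and Myh7, the slow and cardiac myosin. Each is the stretch of 250 bases before the transcription start in RefSeq (build GRCm38.p6), written 5′ to 3′ along the gene's strand: Mstn at chr1:53061390-53061639 on the plus strand, Acta1 at chr8:123894776-123895025 on the minus strand, Myh4 at chr11:67237562-67237811 on the plus strand, and Myh7 at chr14:54994627-54994876 on the minus strand, the first of 2 starts listed for that gene. Capitals mark matches to CANNTG, the E-box core that muscle regulators of the MyoD family bind, and to TATAAA, the TATA box, searched on both strands.
Mstn promoter: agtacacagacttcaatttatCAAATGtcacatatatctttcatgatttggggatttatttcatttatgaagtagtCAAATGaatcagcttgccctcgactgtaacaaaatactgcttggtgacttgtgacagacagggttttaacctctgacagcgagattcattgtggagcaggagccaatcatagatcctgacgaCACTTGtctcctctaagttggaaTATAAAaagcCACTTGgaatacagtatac
Acta1 promoter: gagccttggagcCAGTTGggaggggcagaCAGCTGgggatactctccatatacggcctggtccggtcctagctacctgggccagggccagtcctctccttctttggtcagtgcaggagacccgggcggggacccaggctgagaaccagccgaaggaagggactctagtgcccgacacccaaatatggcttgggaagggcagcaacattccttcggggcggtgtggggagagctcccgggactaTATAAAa
Myh4 promoter: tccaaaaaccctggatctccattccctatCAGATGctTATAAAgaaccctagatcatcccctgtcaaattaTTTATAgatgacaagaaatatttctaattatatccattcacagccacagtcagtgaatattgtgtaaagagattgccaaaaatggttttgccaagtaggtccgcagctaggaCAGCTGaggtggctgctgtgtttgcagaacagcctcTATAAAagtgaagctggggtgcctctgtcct
Myh7 promoter: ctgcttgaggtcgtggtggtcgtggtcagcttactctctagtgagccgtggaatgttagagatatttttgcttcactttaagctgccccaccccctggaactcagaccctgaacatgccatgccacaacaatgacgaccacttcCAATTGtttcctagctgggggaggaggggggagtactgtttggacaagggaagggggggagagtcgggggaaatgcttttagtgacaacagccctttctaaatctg

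The Mstn window held 4 E-box cores and 1 TATA box. The Acta1 window held 2 and 1, that of Myh4 held 2 and 3, and that of Myh7 held 1 and 0. Windows were found for 29 of the 36 genes. A gene was counted if any of its windows held the motif, and the background counts single windows. An E-box core was in 25 of these 29 genes (86.2%) and in 66.2% of all 32851 windows. Its variant CAGCTG, which is counted among the cores as well, was in 13 of 29 (44.8%) and in 13% of all windows. The TATA box was in 7 of 29 (24.1%) against 12.4% of all windows, and the CArG box, the site of serum response factor, was in 5 of 29 (17.2%) against 1.47%. Genes with more than 1 start had more chances of a match, so the shares of genes and of windows are not like for like. These shares describe letters in the windows and say nothing of binding.

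In sWAT the contractile genes were higher in cold. Of the 36 genes, 27 rose and none fell at an adjusted p under 0.05, where 25.1% of all 15731 genes tested rose and 24.1% fell (49.2% in either direction). Adjusted p-values, here and below, come from the quasi-likelihood test of edgeR and are corrected over all genes tested by the method of Benjamini and Hochberg. The median log2 fold change of the 36 genes was 3.61, and that of all genes tested was 0.00. The 3 cold libraries lay above the 3 thermoneutral libraries for 26 of the 36 genes and below them for none, beside 30.1% and 30.5% of all genes. By class, 10 of 13 fast genes rose (median log2 fold change 2.87), 7 of 8 slow and cardiac-type genes (median 5.23), 8 of 11 shared genes (median 4.28), 1 of 3 tropomyosins and Mstn. Of the 27 calls, 16 were made again whichever library was left out, and the number of genes that rose was between 18 and 29 in those fits. With no filter on low counts 14 rose, and the calls lost were those of Myh1, Myh2, Myh4, Mylpf, Myl1, Tnni2, Mybpc2, Casq1, Pvalb, Myh7, Myl3, Tnni1 and Tpm2. With DESeq2 25 rose, and it gave no adjusted p for Myh1, Myh2 and Myh7.

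In BAT most of the 36 genes overlapped between the temperatures. None rose and 3 fell, Pvalb, Myl1 and Mylpf, where 6.82% of the 14612 genes tested rose and 5.34% fell (12.2% in either direction). The median log2 fold change was -0.56, against -0.04 for all genes tested. The cold libraries lay wholly above the thermoneutral libraries for 4 genes and wholly below for 4, beside 16% and 19.7% of all genes, and the groups overlapped for 28. All 3 calls were lost without BAT cold library 1, without cold library 2 or without thermoneutral library 2, and 7 genes fell without thermoneutral library 1. Without the filter, 1 gene rose.

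**Figure D2:**
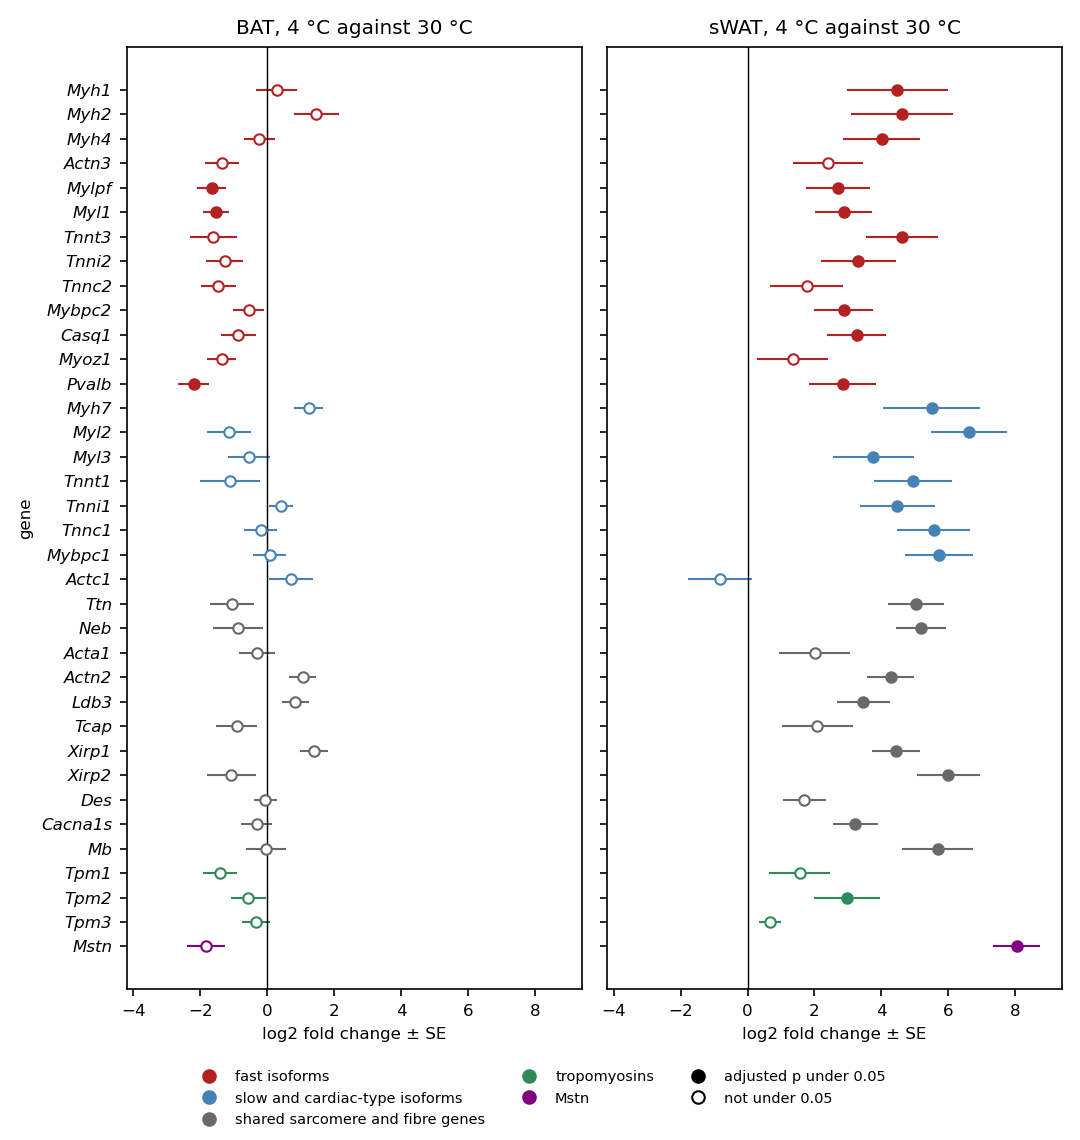
Log2 fold change of cold against thermoneutral for each of the 36 genes in BAT (left) and sWAT (right), with its standard error from 3 libraries per group; filled points have an adjusted p under 0.05. In sWAT 27 points are filled and lie to the right of 0, and in BAT 3 are filled and lie to the left.

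The myosin heavy chains are the motors of the thick filament, and the form a fibre uses sets how fast it shortens. Myh4, the fastest form (type 2B), stood at 1330, 1867 and 1157 CPM in BAT at 4 °C and at 728, 2610 and 1948 CPM in BAT at 30 °C. Its levels in sWAT were 2652, 5613 and 6165 CPM at 4 °C and 392, 493 and 8.48 CPM at 30 °C. Thermoneutral libraries 2 and 3 of BAT were above the cold range and library 1 was below it, so the BAT groups overlapped, while every sWAT cold library was above every sWAT thermoneutral one. The log2 fold change of cold against thermoneutral was -0.23 ± 0.47 in BAT (adjusted p = 0.774) and 4.01 ± 1.15 in sWAT (adjusted p = 0.0187). The sWAT call was lost without cold library 1 or without thermoneutral library 1.

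Myh1 encodes the intermediate fast form, type 2X. It measured 323, 336 and 383 CPM in BAT at 4 °C, 61.0, 497 and 323 CPM in BAT at 30 °C, 228, 707 and 651 CPM in sWAT at 4 °C, and 66.0, 3.81 and 0.322 CPM in sWAT at 30 °C. Only the sWAT groups were apart, and Myh1 rose there by 4.47 ± 1.51 (adjusted p = 0.0359). Myh2, the slower fast form (type 2A), measured 226, 357 and 233 CPM in BAT at 4 °C, 19.3, 181 and 103 CPM in BAT at 30 °C, 51.1, 273 and 288 CPM in sWAT at 4 °C, and 23.6, 0.801 and 0.190 CPM in sWAT at 30 °C. Its groups were apart in both tissues, and it rose in sWAT by 4.61 ± 1.53 (adjusted p = 0.0339). The difference in BAT did not pass the test (1.47 ± 0.66, adjusted p = 0.183). Both sWAT calls were lost without any 1 of the 3 cold libraries or without thermoneutral library 2. Myh1, Myh2 and Myh4 are close copies in 1 cluster on chromosome 11, and how reads shared between them were counted is not given in the sources used here, so their split is uncertain.

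The slow form, Myh7, is the myosin of slow fibres and of the ventricle of the heart. It measured 215, 492 and 194 CPM in BAT at 4 °C and 141, 84.3 and 172 CPM in BAT at 30 °C. In sWAT it was at 17.0, 237 and 225 CPM at 4 °C and at 9.35, 0.728 and 0.247 CPM at 30 °C. All cold libraries were above all thermoneutral ones in both tissues. Myh7 rose in sWAT by 5.51 ± 1.44 on the log2 scale (adjusted p = 0.0129), a call lost with no filter. The BAT difference did not pass the test (1.24 ± 0.43, adjusted p = 0.0984).

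Within a library the isoforms can be set against each other without any scaling, but differences in GC content and length between them remain. Myh7 made up 10.3%, 16.1% and 9.87% of the counts of the 4 adult myosins in BAT at 4 °C, and 14.9%, 2.5% and 6.75% in BAT at 30 °C. In sWAT its share was 0.577%, 3.47% and 3.07% in cold and 1.90%, 0.146% and 2.67% at thermoneutrality. Every BAT cold share was above every sWAT share, and BAT thermoneutral library 2 lay among the sWAT libraries. The share of Myh4 showed the opposite order: 58.8% to 63.5% in BAT cold, 76.5% to 77.4% in BAT thermoneutral, 82.2% to 90% in sWAT cold and 79.8% to 98.9% in sWAT thermoneutral libraries, with no overlap between the tissues. Myh2 took 10.8% to 11.9% in BAT cold, above its 2.03% to 5.37% in BAT thermoneutral libraries. These shares are descriptions without a test.

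Other slow forms gave the same order between the cold groups. Of 7 slow shares (Myh7, Myl2, Myl3, Tnnc1, Tnni1, Tnnt1 and Mybpc1, each of its own fast and slow set), 6 were higher in every BAT cold library than in every sWAT cold library, and Myl3 overlapped. Over all 6 BAT and all 6 sWAT libraries, 1 of the 7 did not overlap, Mybpc1, with 39.1% to 70.4% of the Mybpc1 and Mybpc2 counts in BAT and 0.944% to 26.0% in sWAT. Myl2 made up 17.6% to 33.2% of the regulatory light chain counts in BAT cold libraries and 2.95% to 6.88% in sWAT cold libraries. Divided by exon length the shares change in size, since the forms of a set differ in length. The forms differ in GC content as well, such as 47.7% for Mybpc1 and 54.8% for Mybpc2. The slopes of level on GC content and on length differed between libraries, as given below, and their part in the shares was not tested. Intervals of these shares cover counting error only.

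**Figure D3:**
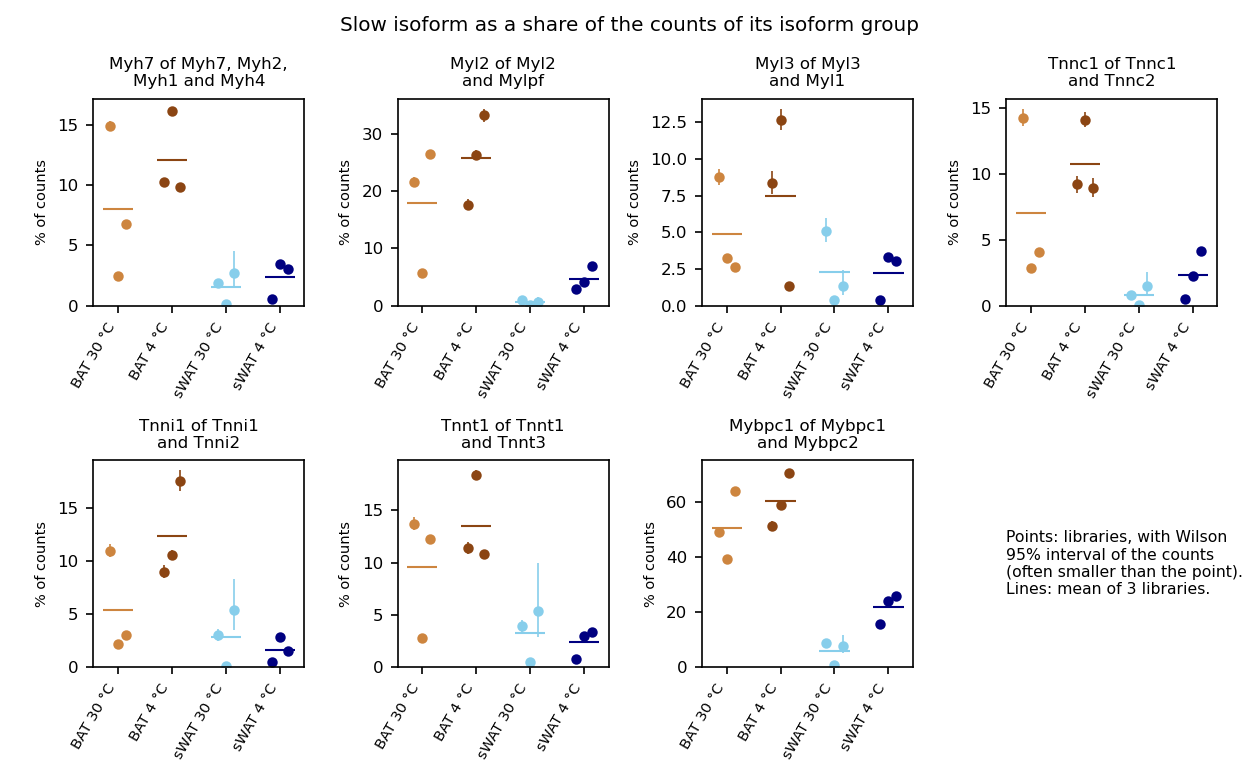
Slow isoform as a percentage of the counts of its isoform set in each library, in 7 panels; points are libraries with Wilson 95% intervals, and lines are means of 3 libraries. The BAT cold points lie above the sWAT cold points in 6 of the 7 panels, and the Myl3 panel overlaps.

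The light chains bind the neck of the myosin head. Mylpf, the fast regulatory light chain, measured 219, 231 and 140 CPM in BAT at 4 °C, 309, 699 and 916 CPM in BAT at 30 °C, 252, 1369 and 1175 CPM in sWAT at 4 °C and 115, 298 and 15.9 CPM in sWAT at 30 °C. It fell by 1.66 ± 0.43 in BAT (adjusted p = 0.0415) and rose by 2.70 ± 0.96 in sWAT (adjusted p = 0.0432). The BAT groups were apart, and in sWAT cold library 1 lay below thermoneutral library 2. Each of the 2 calls was lost in 5 of 6 fits with 1 library left out, and held only without BAT thermoneutral library 1 and without sWAT thermoneutral library 2.

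Myl1, the fast alkali light chain, measured 202, 202 and 224 CPM in BAT at 4 °C and 327, 630 and 932 CPM in BAT at 30 °C. The sWAT values were 295, 813 and 931 CPM at 4 °C and 61.3, 202 and 15.2 CPM at 30 °C. The groups were apart in both tissues, in opposite directions. Myl1 fell by 1.54 ± 0.39 in BAT (adjusted p = 0.0386) and rose by 2.87 ± 0.84 in sWAT (adjusted p = 0.0209). The BAT call was lost in 5 of the 6 fits that left out 1 library, all but that without thermoneutral library 1, and the sWAT call was lost without any of the cold libraries or without thermoneutral library 1.

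Of the slow and cardiac light chains, Myl2, the regulatory form, measured 47.0, 82.9 and 69.8 CPM in BAT at 4 °C and 85.5, 41.7 and 329 CPM in BAT at 30 °C, which overlapped. In sWAT it was at 7.66, 58.2 and 86.7 CPM at 4 °C and at 1.23, 0.194 and 0.114 CPM at 30 °C, with the groups apart. Its rise in sWAT was 6.62 ± 1.13 (adjusted p = 0.00203) and was called whichever library was left out. Myl3, the slow alkali form, measured 18.5, 29.3 and 3.06 CPM in BAT at 4 °C, 31.5, 21.0 and 25.2 CPM in BAT at 30 °C, 1.11, 27.9 and 29.4 CPM in sWAT at 4 °C and 3.30, 0.728 and 0.209 CPM in sWAT at 30 °C. Cold library 1 of sWAT was within the thermoneutral range, and the rise of 3.76 ± 1.21 (adjusted p = 0.0304) was lost without cold library 2 or 3 or thermoneutral library 2 or 3.

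Troponin has a calcium-binding part (C), an inhibitory part (I) and a part that holds the complex to tropomyosin (T). Tnnt3, the fast T, measured 470, 650 and 623 CPM in BAT at 4 °C, 375, 1298 and 3854 CPM in BAT at 30 °C, 906, 1927 and 2044 CPM in sWAT at 4 °C and 90.5, 106 and 2.98 CPM in sWAT at 30 °C. It rose in sWAT by 4.61 ± 1.08 (adjusted p = 0.008), in every fit that left out 1 library. The BAT groups overlapped, with library 3 at thermoneutrality the highest of the 12.

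Tnni2, the fast I, measured 355, 481 and 163 CPM in BAT at 4 °C, 323, 901 and 1262 CPM in BAT at 30 °C, 483, 1539 and 1949 CPM in sWAT at 4 °C and 87.2, 309 and 6.31 CPM in sWAT at 30 °C, and rose in sWAT (3.31 ± 1.12, adjusted p = 0.0364). That call was lost without any 1 of the cold libraries or without thermoneutral library 1. Tnnc2, the fast C, measured 306, 412 and 195 CPM in BAT at 4 °C, 334, 836 and 1432 CPM in BAT at 30 °C, 570, 1762 and 1311 CPM in sWAT at 4 °C and 162, 896 and 15.4 CPM in sWAT at 30 °C. Its sWAT groups overlapped through thermoneutral library 2, and the difference did not pass the test (1.77, adjusted p = 0.203).

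The slow troponins all rose in sWAT. Tnnt1 measured 60.5, 147 and 75.5 CPM in BAT at 4 °C, 59.7, 37.2 and 538 CPM in BAT at 30 °C, 7.38, 59.6 and 71.4 CPM in sWAT at 4 °C and 3.67, 0.558 and 0.171 CPM in sWAT at 30 °C. Tnni1 measured 35.0, 56.7 and 34.6 CPM in BAT at 4 °C, 39.8, 19.8 and 39.6 CPM in BAT at 30 °C, 2.58, 44.9 and 30.9 CPM in sWAT at 4 °C and 2.70, 0.388 and 0.360 CPM in sWAT at 30 °C. Cold library 1 of sWAT was the low one of its group for both, and for Tnni1 it lay within the thermoneutral range. Tnnc1, the calcium-binding troponin of slow and heart muscle, measured 30.9, 67.6 and 19.1 CPM in BAT at 4 °C, 55.6, 24.6 and 60.5 CPM in BAT at 30 °C, 2.95, 40.6 and 57 CPM in sWAT at 4 °C and 1.37, 0.510 and 0.228 CPM in sWAT at 30 °C. The sWAT increases were 4.96 ± 1.17 for Tnnt1 (adjusted p = 0.00817), 4.48 ± 1.12 for Tnni1 (adjusted p = 0.0105) and 5.56 ± 1.08 for Tnnc1 (adjusted p = 0.00357). All 3 were called whichever library was left out, and that of Tnni1 was lost with no filter on low counts. The BAT groups overlapped for all 3.

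Myosin binding protein C braces the thick filament, in a slow form, Mybpc1, and a fast form, Mybpc2. Mybpc1 measured 98.7, 137 and 203 CPM in BAT at 4 °C, 55.8, 148 and 229 CPM in BAT at 30 °C, 55.1, 154 and 193 CPM in sWAT at 4 °C and 6.02, 1.09 and 0.379 CPM in sWAT at 30 °C. It rose in sWAT by 5.73 ± 1.01 (adjusted p = 0.00231), and its BAT groups overlapped. Mybpc2 measured 93.6, 96.2 and 85.2 CPM in BAT at 4 °C, 58.4, 230 and 130 CPM in BAT at 30 °C, 295, 485 and 551 CPM in sWAT at 4 °C and 63.3, 115 and 4.53 CPM in sWAT at 30 °C. Its rise in sWAT (2.87 ± 0.89, adjusted p = 0.026) was lost without any 1 of the cold libraries or without thermoneutral library 1.

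Among the other fast genes, Pvalb, the calcium buffer that lets fast fibres relax quickly, was the gene furthest from 0 in BAT. It measured 104, 76.2 and 60.9 CPM in BAT at 4 °C and 226, 656 and 265 CPM in BAT at 30 °C, and 143, 552 and 819 CPM in sWAT at 4 °C and 72.5, 133 and 5.12 CPM in sWAT at 30 °C. The groups were apart in both tissues, in opposite directions. Pvalb fell by 2.20 ± 0.46 in BAT (adjusted p = 0.0201, between 0.0199 and 0.0845 over the fits that left out 1 library, the highest without cold library 2) and rose by 2.85 ± 1.01 in sWAT (adjusted p = 0.0428, lost without any 1 of the cold libraries or without thermoneutral library 1). Casq1, which stores calcium inside fast fibres, measured 92.5, 99.1 and 110 CPM in BAT at 4 °C, 56.5, 226 and 283 CPM in BAT at 30 °C, 165, 346 and 373 CPM in sWAT at 4 °C and 31.6, 57.8 and 2.65 CPM in sWAT at 30 °C. It rose in sWAT by 3.26 ± 0.89 (adjusted p = 0.015), a call lost without cold library 1 or thermoneutral library 1. Actn3, the fast actin crosslinker of the Z-disc, and Myoz1, a Z-disc partner of calcineurin, did not pass the test in either tissue.

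Titin (Ttn), the elastic giant that runs from the Z-disc to the middle of the sarcomere, measured 316, 415 and 542 CPM in BAT at 4 °C, 195, 774 and 1745 CPM in BAT at 30 °C, 765, 1177 and 1500 CPM in sWAT at 4 °C and 29.5, 70.8 and 6.11 CPM in sWAT at 30 °C. It rose in sWAT by 5.02 ± 0.84 (adjusted p = 0.00181), and the BAT groups overlapped. Acta1, the actin of the thin filament, measured 1110, 1292 and 364 CPM in BAT at 4 °C, 758, 1897 and 876 CPM in BAT at 30 °C, 1035, 3976 and 3143 CPM in sWAT at 4 °C and 602, 1399 and 28.3 CPM in sWAT at 30 °C. Thermoneutral library 2 lay above cold library 1 in sWAT, and Acta1 did not pass the test there (2.00, adjusted p = 0.143).

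The balance of these 2 genes differed between libraries. There were 0.284, 0.321 and 1.49 Ttn counts per Acta1 count for BAT at 4 °C and 0.258, 0.408 and 1.99 for BAT at 30 °C. In sWAT the ratio was 0.739, 0.296 and 0.477 in cold and 0.0490, 0.0506 and 0.216 at thermoneutrality. The sWAT thermoneutral libraries were the 3 lowest of the 12, and library 3 of BAT was the highest at both temperatures. Gene length moved with this, and its part was not tested. Across all 15927 genes compared, the slope of log2 CPM per doubling of transcript length was 0.297 to 0.382 in sWAT thermoneutral and 0.490 to 0.782 in the other libraries, highest in BAT cold library 3. The slope per 10 points of GC content was 0.70 to 1.15 in sWAT thermoneutral and -0.56 to 0.24 in the others. Among the 36 genes, Spearman's rho between transcript length and log2 fold change was 0.24 in sWAT and 0.48 in BAT, as a description across genes that share libraries. After a correction for length 25 of the 36 genes rose in sWAT, and after a correction for GC content 29 did. The length correction moved the sWAT log2 fold change of Ttn from 5.02 to 3.46, of Neb from 5.19 to 4.12 and of Acta1 from 2.00 to 2.17. In BAT it moved that of Ttn from -1.05 to -0.11.

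**Figure D4:**
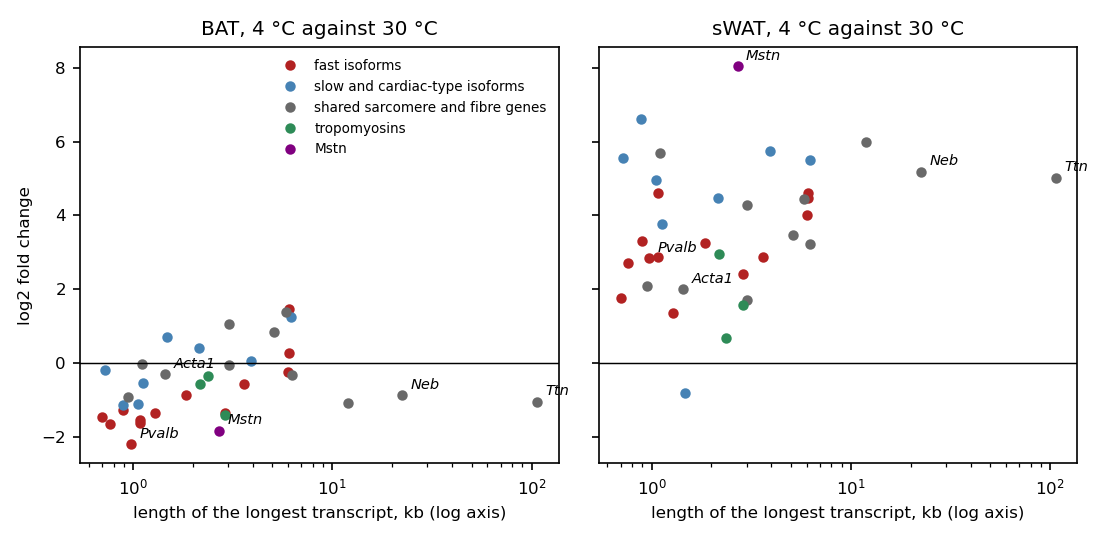
Log2 fold change of cold against thermoneutral (vertical) against the length of the longest annotated transcript in kb (horizontal, log axis) for the 36 genes in BAT (left) and sWAT (right), coloured by class. Ttn and Neb lie above Acta1 in sWAT and below it in BAT.

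The other shared genes split by whether they passed in sWAT. Neb, the ruler of the thin filament, measured 319, 520 and 608 CPM in sWAT at 4 °C and 14.0, 23.2 and 2.65 CPM in sWAT at 30 °C and rose by 5.19 ± 0.75 (adjusted p = 0.00102). Mb, the oxygen store myoglobin, measured 175, 426 and 552 CPM in sWAT at 4 °C and 17.7, 3.59 and 0.872 CPM in sWAT at 30 °C and rose by 5.68 ± 1.07 (adjusted p = 0.00305). In BAT, Mb was at 320, 396 and 467 CPM at 4 °C and 108, 349 and 797 CPM at 30 °C, and Neb at 125, 195 and 280 CPM at 4 °C and 62.5, 266 and 808 CPM at 30 °C. Both overlapped in BAT and were apart in sWAT.

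A further 5 shared genes rose in sWAT in every fit that left out 1 library: Xirp2 (6.00 ± 0.94, adjusted p = 0.0014) and Xirp1 (4.43 ± 0.72, adjusted p = 0.00167), which bind actin at the ends of fibres, Actn2 (4.28 ± 0.70, adjusted p = 0.00173) and Ldb3 (3.46 ± 0.79, adjusted p = 0.00722), which build the Z-disc, and Cacna1s (3.22 ± 0.67, adjusted p = 0.00468), the voltage sensor that triggers calcium release. Xirp2 measured 146, 177 and 265 CPM in sWAT at 4 °C and 2.46, 6.53 and 0.303 CPM in sWAT at 30 °C, and 42.2, 57 and 98.8 CPM in BAT at 4 °C and 24.4, 124 and 284 CPM in BAT at 30 °C. Xirp1 measured 11.8, 18.0 and 21.6 CPM in sWAT at 4 °C and 1.44, 0.825 and 0.114 CPM in sWAT at 30 °C, and 11.2, 12.7 and 19.0 CPM in BAT at 4 °C and 2.94, 5.96 and 8.01 CPM in BAT at 30 °C. The Xirp1 groups were apart in BAT as well, with cold higher, and the difference did not pass the test there (1.39, adjusted p = 0.0634), although it did without thermoneutral library 3 (adjusted p = 0.037). Actn2 measured 38.4, 147 and 133 CPM in sWAT at 4 °C and 10.6, 2.77 and 2.84 CPM in sWAT at 30 °C, and 73.0, 131 and 89.2 CPM in BAT at 4 °C and 26.5, 51.9 and 67.6 CPM in BAT at 30 °C, apart in both tissues with cold higher. Ldb3 measured 151, 412 and 371 CPM in sWAT at 4 °C and 28.2, 52.2 and 4.40 CPM in sWAT at 30 °C, and Cacna1s 55.1, 116 and 124 CPM against 9.05, 20.2 and 2.56 CPM. In BAT, Ldb3 was at 138, 210 and 117 CPM at 4 °C and 46.1, 123 and 99.6 CPM at 30 °C, and Cacna1s at 33.6, 48.1 and 35.6 CPM and 18.5, 71.2 and 60.3 CPM.

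Desmin (Des), the intermediate filament that ties neighbouring sarcomeres together and is also made by smooth muscle, measured 156, 545 and 489 CPM in sWAT at 4 °C and 110, 216 and 38.0 CPM in sWAT at 30 °C, which overlapped (1.70, adjusted p = 0.0548). Tcap, the cap of titin at the Z-disc, also overlapped and did not pass the test (adjusted p = 0.133). The 3 tropomyosins differed from each other. Tpm2 rose in sWAT by 2.96 ± 0.98 (adjusted p = 0.0339), from 101, 259 and 7.79 CPM at thermoneutrality to 473, 1223 and 1165 CPM in cold, and that call was lost without any 1 of the cold libraries or without thermoneutral library 1. Tpm1 measured 481, 1245 and 1269 CPM in sWAT at 4 °C and 210, 778 and 30.7 CPM in sWAT at 30 °C and overlapped. Tpm3, which serves slow fibres and, in other forms, most cells of the body, measured 110, 128 and 110 CPM in sWAT at 4 °C and 108, 51.5 and 57 CPM in sWAT at 30 °C. In BAT, Tpm1 was at 317, 327 and 223 CPM at 4 °C and 281, 807 and 1290 CPM at 30 °C, Tpm2 at 426, 638 and 377 CPM and 263, 696 and 1245 CPM, and Tpm3 at 94.6, 141 and 81.8 CPM and 106, 84.5 and 228 CPM. None of the 3 passed the test in BAT, and all 3 overlapped there.

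The cardiac-type actin Actc1, the main actin of the heart and of muscle before birth, was the 1 gene of its class that did not rise in sWAT. It measured 4.25, 3.10 and 14.5 CPM in BAT at 4 °C, 2.39, 3.22 and 8.29 CPM in BAT at 30 °C, 3.23, 6.32 and 7.14 CPM in sWAT at 4 °C and 6.00, 23.0 and 0.512 CPM in sWAT at 30 °C. Its groups overlapped in both tissues, and neither difference passed the test (adjusted p = 0.517 in BAT and 0.501 in sWAT). Actc1 took 0.159% to 3.83% of the counts of the 2 actins Acta1 and Actc1, with the highest share in BAT cold library 3. The 2 actins are close in sequence, so their split is uncertain as well. Among 11 other developmental and cardiac muscle genes, few were above the filter: 1 of 4 tested rose in sWAT, Myh7b (4.07 ± 0.86, adjusted p = 0.00501), and 1 fell, Tnni3 (-1.57 ± 0.42, adjusted p = 0.0133), the latter lost in 2 of the 6 fits that left out 1 library. Tnni3, the cardiac inhibitory troponin, stood at 3.19 CPM or less in every library. Myl7 and Mybpc3, of the atrium and the heart, stood at 0.419 CPM or less in every library.

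Mstn was the gene with the largest difference in sWAT in the main fit. It measured 0.582, 0.783 and 0.706 CPM in BAT at 4 °C (13, 26 and 21 counts) and 0.761, 3.90 and 2.97 CPM in BAT at 30 °C (21, 138 and 127 counts). In sWAT it was at 21.6, 34.4 and 65.3 CPM in cold (1163, 1154 and 2084 counts) and at 0.0930, 0.315 and 0.0569 CPM at thermoneutrality (4, 13 and 3 counts). The sWAT cold libraries were above all other libraries, and the sWAT thermoneutral libraries were below all other libraries. Mstn rose in sWAT by 8.05 ± 0.70 on the log2 scale (adjusted p = 0.000226), and the log2 fold change lay between 7.52 and 9.02 when 1 library was left out. After the correction for GC content its rise was 6.35, below the 6.71 of Myl2. After the correction for length it was 8.05. In BAT the groups overlapped, with thermoneutral library 1 within the cold range, and the difference did not pass the test (-1.83 ± 0.58, adjusted p = 0.0737), although it did without that library (adjusted p = 0.0278).

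The level of Mstn did not keep a fixed ratio to the fast myosin. There were 0.438, 0.419 and 0.610 Mstn counts per 1000 Myh4 counts in the BAT libraries at 4 °C and 1.05, 1.49 and 1.53 for BAT at 30 °C. In sWAT there were 8.13, 6.13 and 10.6 at 4 °C and 0.237, 0.639 and 6.71 at 30 °C, the last from 3 Mstn and 447 Myh4 counts. The 4 highest ratios were therefore those of the 3 sWAT cold libraries and of sWAT thermoneutral library 3, and the BAT ratios were higher at thermoneutrality than in cold with no overlap. The GC content of Mstn is 38.1% and that of Myh4 52.8%, and the part of the GC slopes in these ratios was not tested. Against Ckm, the muscle creatine kinase, the sWAT ratios were 19.6, 10.8 and 24.2 Mstn counts per 1000 in cold and 0.260, 0.201 and 1.86 at thermoneutrality, with no overlap.

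**Figure D5:**
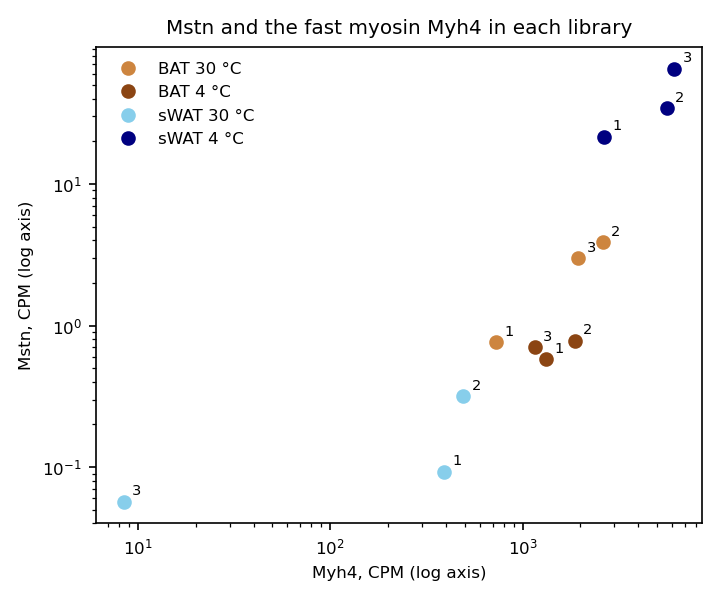
Mstn (vertical) against Myh4 (horizontal) in each of the 12 libraries, both as scaled CPM on log axes, coloured by group and numbered by library. The 3 sWAT cold libraries lie at 21.6 to 65.3 CPM of Mstn, and the BAT libraries lie at 3.90 CPM or less for Myh4 levels of 728 to 2610 CPM.

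The response to cold was then compared between the tissues in 1 fit over all 12 libraries. For 25 of the 36 genes the log2 fold change was larger in sWAT than in BAT at an adjusted p under 0.05, and for none smaller, where 17.3% of the 16365 genes tested were higher in this contrast and 7.85% lower (25.1% in either direction). The median difference was 4.21, and that of all genes tested was 0.12. Mstn gave the largest, 9.92 ± 0.97 (adjusted p = 0.000197), then Myl2 with 7.83 ± 1.41 (adjusted p = 0.0026) and Xirp2 with 7.11 ± 1.30 (adjusted p = 0.00281). Myh1 and Myh2 were among the 11 that did not pass (adjusted p = 0.0807 and 0.18). Of the 25 calls, 14 were made again whichever library was left out. The count was 14 without BAT cold library 1, 16 without BAT cold library 2 and 14 without both BAT libraries numbered 3. The sWAT thermoneutral libraries enter this contrast, with the composition given above.

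Between the tissues at thermoneutrality, BAT was higher for 26 of the 36 genes and lower for none, where 29.9% of the 16365 genes tested were higher and 28.8% lower in BAT (58.7% in either direction). The median log2 difference was 2.69, against 0.03 for all genes tested, and the groups were apart for 22 genes, beside 32.3% of all genes. Slow forms had the largest values: Myl2 8.22 ± 1.21 (adjusted p = 0.000103), Tnnt1 7.18 ± 1.40 (adjusted p = 0.000752) and Tnnc1 6.07 ± 1.02 (adjusted p = 0.000257). The median was 5.56 over the 8 slow and cardiac-type genes and 2.56 over the 13 fast genes. Of the 26 calls, 18 were made again whichever library was left out. This contrast shares its sWAT thermoneutral libraries with the comparison of cold and thermoneutral sWAT.

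In cold, Mstn was the 1 gene of the 36 that passed the test between the tissues. It was lower in BAT by a log2 difference of -5.85 ± 0.69 (adjusted p = 8.79e-05), where 11.1% of the 16365 genes tested were lower in BAT and 1.19% higher (12.3% in either direction). The median of the 36 genes was -1.30, against -0.03 for all genes tested. BAT cold libraries lay wholly below sWAT cold libraries for 17 genes and wholly above for none, beside 21.8% and 13.4% of all genes. The medians of the classes were -1.99 for the fast and 0.39 for the slow and cardiac-type genes, and no gene of either class passed. At an unadjusted p under 0.05 there were 8 of the 36, beside 25.7% of all genes tested, so this count was near the background. Without sWAT thermoneutral library 3, 7 genes were lower in BAT, and without sWAT thermoneutral library 2 there were 2. Neither library is in the groups compared here, but both enter the shared estimate of spread, the filter and the scaling.

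Levels of different genes can be set side by side per length, within limits. Exon length here joins all annotated exons, which for some genes exceeds the longest transcript (Tpm1, 6485 against 2890 bases) and lowers their values. The slope of level on length also differed between libraries, as given above. As CPM per kb of exon, Acta1 was the highest of the 36 in sWAT cold (1770 ± 987, SD, n = 3), followed by Tnnc2 (1518 ± 752) and Tnnt3 (1027 ± 395). Neighbours in this order differed by less than their spread. Myh4 stood at 800 ± 314 CPM per kb there, and Myh7 at 18.5 ± 14.3 and Mstn at 14.9 ± 8.30 also differed by less than their spread. In BAT cold, Acta1 was again the highest at 600 ± 320 CPM per kb, Myh4 stood at 241 ± 61.5, Myh7 at 34.9 ± 19.3 and Mstn at 0.255 ± 0.037.

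Other muscle genes, listed by function, also rose in sWAT, where 25.1% of all genes tested rose and 24.1% fell. Of genes for calcium release and uptake, 8 of 12 tested rose and none fell. They included Sln (6.02 ± 0.83, adjusted p = 0.000838), an inhibitor of the calcium pump, Casq2 (4.87 ± 0.71, adjusted p = 0.00102), a calcium store of slow and heart muscle, Stac3 (3.31 ± 0.54, adjusted p = 0.00164), which couples the voltage sensor to calcium release, and Trdn (6.65 ± 1.12, adjusted p = 0.00187), an anchor of the release channel. Of muscle energy enzymes, 11 of 14 rose, including Fabp3 (7.21 ± 0.90, adjusted p = 0.000571), a fatty acid carrier that brown fat also makes, and Ampd1 (4.42 ± 0.63, adjusted p = 0.000936). This list shares 2 genes with the brown adipocyte markers below, Cox7a1, which rose, and Cox8b, which did not pass. Of other sarcomere genes, 22 of 27 rose, including Fhl1 (3.05 ± 0.36, adjusted p = 0.000488), Klhl41 (4.09 ± 0.53, adjusted p = 0.00069) and Lmod3 (4.53 ± 0.65, adjusted p = 0.000998). Of the regulators of muscle genes, 10 of 13 rose, including Mef2c (2.21 ± 0.27, adjusted p = 0.000507) and Barx2 (4.67 ± 0.80, adjusted p = 0.00208). Of genes of the nerve-muscle junction, 3 of 7 rose and 1 fell, with the receptor subunit Chrna1 up by 3.21 ± 0.63 (adjusted p = 0.00364).

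In BAT few genes of these lists passed, where 6.82% of all genes tested rose and 5.34% fell. No calcium gene of 13, regulator of 13 or junction gene of 7 passed the test in either direction. Of 14 energy enzymes 2 rose, Fabp3 (1.88 ± 0.32, adjusted p = 0.00942) and Ucp3 (1.09 ± 0.26, adjusted p = 0.0297), and of 27 other sarcomere genes 1 rose, Mybph (1.69 ± 0.41, adjusted p = 0.0316). At the background share, counts of this size are not a result about the lists. The Fabp3 call was lost in 2 of the 6 fits that left out 1 library, and those of Ucp3 and Mybph in 4. Mybph was at 5.60, 5.12 and 11.5 CPM in BAT at 4 °C and at 1.78, 2.74 and 2.62 CPM in BAT at 30 °C.

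Of the partners of myostatin (receptors, binding proteins and signal carriers), 2 of 16 tested rose in sWAT and 6 fell, beside 25.1% and 24.1% of all genes tested. Among those that fell were Smad7 (-2.11 ± 0.24, adjusted p = 0.000428), an inhibitor of the pathway, Bmp1 (-1.66 ± 0.22, adjusted p = 0.000694), a protease that frees myostatin from its propeptide, and Inhbb (-2.35 ± 0.39, adjusted p = 0.00181), a subunit of activin. In BAT, where 5.34% of all genes tested fell, 2 of 15 fell and none rose, Inhbb (-2.08 ± 0.38, adjusted p = 0.0129) and the receptor Acvr2b (-1.48 ± 0.39, adjusted p = 0.0439), calls lost in 3 and 5 of the 6 fits that left out 1 library.

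Markers of other cells also differed between the sWAT groups, and the counts of genes that passed are to be read beside the 25.1% of all genes tested that rose and the 24.1% that fell. Smooth muscle genes, whose contractile proteins are other gene copies, summed to 360 to 465 CPM in sWAT at 4 °C and 208 to 238 CPM in sWAT at 30 °C over 12 genes, with 4 of 11 tested rising and 2 falling. In BAT none of 12 passed. Lymphocyte markers summed to 218 to 670 CPM in sWAT at 4 °C and 756 to 980 CPM in sWAT at 30 °C, with 6 of 10 falling. Macrophage markers summed to 195 to 336 CPM and 499 to 1078 CPM, with 1 of 6 rising and 3 falling. Fibroblast markers summed to 1081 to 1705 CPM and 3450 to 5773 CPM, with 4 of 8 falling. Endothelial markers summed to 423 to 551 CPM and 288 to 401 CPM, with 4 of 6 rising and 1 falling. Brown adipocyte markers summed to 4733 to 17937 CPM and 283 to 1218 CPM, with 9 of 10 rising. Nonmuscle cytoskeletal genes summed to 2339 to 3038 CPM in sWAT at 4 °C and 3686 to 5390 CPM in sWAT at 30 °C, with none of 10 rising and 2 falling. Skin epithelium markers summed to 1.88 to 4.89 CPM and 5.44 to 11.3 CPM, with both of the 2 tested falling. The sums named so far did not overlap between the sWAT groups, and 3 other lists did. General adipocyte markers summed to 17678 to 28897 CPM in cold and 12502 to 19424 CPM at thermoneutrality, with 2 of 10 rising and 1 falling. Nerve and Schwann cell markers summed to 166 to 270 CPM and 213 to 248 CPM, with 1 of 6 rising and 3 falling, and erythrocyte markers to 218 to 1946 CPM and 515 to 1068 CPM, with none of 6 passing. The part of these differences in the muscle gene result was not tested.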

How the data were processed

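The authors deposited 1 table of raw read counts for each gene, in whole numbers that were not normalized. Per the submitters' processing notes STAR, DESeq2 and the mm10 build were used, with no version given, and for the counter, strandedness and gene models: not given in the sources used here. Per the labels, Illumina TruSeq libraries took 1000 ng of RNA each and were read as 100 nt pairs. The first BAT and the second sWAT column of the cold groups carry the word merged, unexplained. Totals ranged from 27117934 to 56243016 counts, so that 3 counts corresponded to 0.0533 to 0.111 CPM of the unscaled total, and no 2 libraries of a group were duplicates.

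From the counts, edgeR 4.0.16 in R 4.3.3 (filterByExpr, TMM scaling, glmQLFit with robust=TRUE, glmQLFTest) compared cold with thermoneutral in the 6 libraries of each tissue. A fit of 4 group means over all 12 libraries gave the difference of the responses and the 2 tissue contrasts. Benjamini-Hochberg adjusted p-values, taken over every gene tested, were read at 0.05. The standard error is the log2 fold change divided by the square root of F. CPM use the total times the TMM factor. Shares have Wilson 95% intervals, which cover counting error only. The procedure was also run on simulated counts, with the same spread for every gene and the same composition in every library. These data have neither property, so that run does not show how reliable the calls above are. Lengths and positions came from GENCODE M21, and promoters from RefSeq.

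The 36 genes and the lists of other muscle genes, myostatin partners and other cell types were chosen with earlier results of these data known. Levels in every library are given for the genes of each class with the highest mean level, for every gene past the threshold in a cold comparison and for both members of an isoform pair; of other lists, counts and up to 4 genes with the smallest adjusted p. Myh8, Myh3 and Tnnt2 and the levels of Ucp1, Ckm, Mybph, Myl7, Mybpc3 and Tnni3 were named after their values were seen.

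Alternatives were scaling by upper quartile, by RLE and by totals that omit the 13 mitochondrially encoded genes, the DESeq2 1.42.0 Wald test, limma-voom 3.58.1, robust=FALSE, a minimum of 1 CPM in 3 libraries, no minimum, the library number as a replicate block, the 12-library fit for the cold comparisons, and leaving out each library. Added after seeing the data were fits without both BAT libraries numbered 3, and with a GC or a length correction (loess, span 0.4).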

Additional observations from a re-analysis of the deposited data

Results flagged for a closer look

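The response to cold differed between sWAT and BAT, by the test of the difference itself in the 12-library fit, for 25 of the 36 genes. The values are log2 fold changes in sWAT minus those in BAT, with adjusted p-values from edgeR's quasi-likelihood test under 0.05. Of the fast genes, the difference was 4.29 for Myh4, 3.80 for Actn3, 4.41 for Mylpf, 4.46 for Myl1, 6.28 for Tnnt3, 4.62 for Tnni2, 3.47 for Mybpc2, 4.17 for Casq1 and 5.10 for Pvalb. Of the slow and cardiac-type genes it was 4.36 for Myh7, 7.83 for Myl2, 4.40 for Myl3, 6.15 for Tnnt1, 4.16 for Tnni1, 5.84 for Tnnc1 and 5.73 for Mybpc1. Of the shared genes it was 6.11 for Ttn, 6.11 for Neb, 3.29 for Actn2, 3.10 for Xirp1, 7.11 for Xirp2, 3.57 for Cacna1s and 5.78 for Mb. It was 3.57 for Tpm2 and 9.92 for Mstn. The calls for Actn3, Mybpc2, Myh4, Myh7, Myl3, Tnni1, Tnni2, Tnnt1, Tpm2, Xirp1 and Casq1 were lost in at least 1 of the fits that left out a library. The groups have 3 libraries each, too few for a rule on single outlying libraries.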

How the results depend on the processing

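The direction of the members' median held in all 5 comparisons under every alternative. Scalings moved the median of all genes by at most 0.16 on the log2 scale. For BAT, cold against thermoneutral, the number of the 36 genes that rose (0) was 1 with no filter, 2 with DESeq2 and 3 without both BAT libraries numbered 3, and the number that fell (3) was 8 with DESeq2, 1 with limma-voom, 0 in the 12-library fit and 1 with the length correction; leaving out 1 library gave 0 to 1 and 0 to 7. In BAT a change of sign was looked for in only 10 of the 36 genes. These were the genes called or with the smallest adjusted p-values of their class. Of these, 2 that were not called reversed without thermoneutral library 3. Myl2 was -1.58 to 0.12 and Tpm2 -0.998 to 0.031 with 1 library left out. They were 0.10 and 0.20 without both libraries numbered 3. The signs of the remaining genes were not followed, so more of them may turn on that library. In sWAT the 27 that rose became 14 with no filter and 18 to 29 with 1 library left out. For the difference of responses the 25 became 15 with no filter, 14 without both BAT libraries numbered 3 and 14 to 28 with 1 library left out. Between tissues, the 26 at thermoneutrality became 20 to 29 with 1 library left out. Of these 26, the calls of Myh1, Myh2, Myh4, Mylpf, Tnni2, Ldb3 and Tpm2 were lost with no filter, and also without both BAT libraries numbered 3. That of Pvalb was lost with no filter, and that of Casq1 without both BAT libraries numbered 3. The 1 in cold became 4 with DESeq2 and 1 to 7 with 1 library left out. The cause of these changes was not tested.

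The titles number an experiment, 1 to 3 in every group, and do not say whether this marks a shared batch, day or litter. Over the 4 pairs of groups, same-numbered libraries correlated in their deviations at -0.548 to 0.646, and at 0.405, 0.091 and 0.352 between the BAT groups, so that not every pair was above 0.1 and the numbers are not taken to pair the libraries. With the number as a replicate block, 2 genes rose (Actn2 and Xirp1) and 2 fell in BAT, where the call of Mylpf was lost. In sWAT 22 rose, and the calls of Mylpf, Tnni2, Pvalb, Myl3 and Tnni1 were lost. In the other contrasts 22 differed between the responses, 24 were higher in BAT at thermoneutrality and 1 was lower in cold. The best match of a library was its own number in 2, 0, 1 and 2 of 3 cases over the 4 pairs of groups. Depth limits Mstn, Myl2, Myl3, Myh7, Myh1, Myh2, Mybpc1, Xirp1, Xirp2 and the slow troponins in sWAT thermoneutral libraries. Single values there rest on as few as 3 counts. In library 3 the counts were 6 for Xirp1, 10 for Myh2, 11 for Myl3, 16 for Xirp2, 17 for Myh1 and 20 for Mybpc1. The Myh7 share of 2.67% in that library rests on 13 of 487 counts.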

Other observations

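Myosins of developing and regenerating muscle were high in 1 library. Myh3, the embryonic form, stood at 66.9 CPM in BAT cold library 3 and at 1.93 and 0.632 CPM in BAT cold libraries 1 and 2, and Myh8, the perinatal form, at 55.7 CPM in library 3 and 3.94 and 0.0903 CPM in libraries 1 and 2. Both stood at 0.715 CPM or less in the other 9 libraries. The cardiac and embryonic troponin Tnnt2 was also highest in BAT cold library 3, at 10.7 CPM against 1.43 CPM or less in the other 11, and so was Actc1 among the BAT libraries. Myh3, Myh8 and Tnnt2 come from the list of developmental and cardiac muscle genes. The remaining genes of that list, summed, were not higher in BAT cold library 3 than in BAT cold library 2. Of 6 developmental and cardiac muscle genes tested in BAT, 1 rose in cold, Myh8 (adjusted p = 0.0477 by edgeR's quasi-likelihood test), where 6.82% of all genes tested rose in BAT, and the call was lost in 5 of the 6 fits that left out 1 library, including that without library 3. That library also had the highest mitochondrial share (53.8%) and the lowest ribosomal protein share (0.333%) of the BAT libraries, and their part in these values was not tested.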
